A study of Mus musculus with 11 samples.

Results

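The genes described here are 9 chemokines that epithelial cells are known to make (Cxcl14, Cxcl12, Cxcl1, Cxcl2, Cxcl16, Cx3cl1, Ccl2, Ccl7 and Ccl20) and Csf1, the growth factor of macrophages. They were taken by name, as a fixed list of 10 genes, out of 20145 genes with a probe on the arrays, and the selection rule used no threshold on a measured value, though the list was drawn up with earlier results of these data known. The list had 13 probes: 3 for Csf1, 2 for Cxcl12 and 1 for each of the other genes. For 9 of the 10 genes a probe passed the filter on dim signal, and Ccl20 did not.

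The RNA came from mammary outgrowths, ductal tissue that grows from mammary epithelial cells after injection, here in Matrigel. The primary cells had been infected overnight with a lentivirus carrying a hairpin against Ror2 (shROR2), a receptor of non-canonical Wnt signalling, or a control hairpin against luciferase (shLUC). Outgrowths were sorted on the surface proteins CD24 and CD29 into basal cells, the contractile outer layer, and luminal cells, the inner layer that faces the duct. The groups were basal shROR2 (3 arrays), basal shLUC (3 arrays), luminal shROR2 (2 arrays) and luminal shLUC (3 arrays), and the series asks what Ror2 does in each layer. A lentivirus and a hairpin were common to all groups, and the strain, the age, the host and the number of animals or outgrowths behind a sample are not given in the sources used here. The labels speak of triplicates, but luminal shROR2 had 2 samples among those used here.

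Chemokines are small secreted proteins that draw cells bearing a matching G protein-coupled receptor along a gradient. In the mammary gland, macrophages gather around the growing ducts, and Csf1 is required for their numbers and for normal branching. Cxcl12 signals through Cxcr4 and is scavenged by Ackr3, Ccl2 and Ccl7 call monocytes through Ccr2, Cxcl1 and Cxcl2 call neutrophils through Cxcr2, and Cxcl16 and Cx3cl1 are made as membrane proteins that proteases of the ADAM family release.

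Promoter sequences are shown for some of the genes whose levels set the layers apart (Cxcl14, Cxcl12 and Csf1) and for Cxcl1 and Cxcl2, which sit next to each other on chromosome 5 and differed in pattern. Ccl2 and Ccl7 also set the layers apart, but no sequence was available for them or for Cxcl16. They are RefSeq sequences of assembly GRCm38.p6, each 300 bases long, from 250 bases before the gene's start to 50 bases after it, and 7 of the 10 genes had one. The intervals are chr13:56296502-56296801 on the minus strand for Cxcl14, chr6:117168285-117168584 on the plus strand for Cxcl12, chr3:107760420-107760719 on the minus strand for Csf1, chr5:90890995-90891294 on the plus strand for Cxcl1 and chr5:90903649-90903948 on the plus strand for Cxcl2. Capitals mark matches to the kappaB motif.
Cxcl14: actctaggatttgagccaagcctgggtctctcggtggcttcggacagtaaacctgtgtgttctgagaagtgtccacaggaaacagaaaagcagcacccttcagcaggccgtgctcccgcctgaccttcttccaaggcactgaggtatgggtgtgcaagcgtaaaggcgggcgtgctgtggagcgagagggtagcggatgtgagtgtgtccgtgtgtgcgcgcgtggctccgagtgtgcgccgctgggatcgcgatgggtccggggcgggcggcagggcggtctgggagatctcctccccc
Cxcl12: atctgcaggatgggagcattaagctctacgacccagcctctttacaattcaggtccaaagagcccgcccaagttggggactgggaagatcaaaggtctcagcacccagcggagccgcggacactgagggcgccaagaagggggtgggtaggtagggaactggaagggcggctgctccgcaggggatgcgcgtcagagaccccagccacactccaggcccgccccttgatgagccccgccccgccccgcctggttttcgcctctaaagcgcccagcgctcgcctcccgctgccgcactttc
Csf1: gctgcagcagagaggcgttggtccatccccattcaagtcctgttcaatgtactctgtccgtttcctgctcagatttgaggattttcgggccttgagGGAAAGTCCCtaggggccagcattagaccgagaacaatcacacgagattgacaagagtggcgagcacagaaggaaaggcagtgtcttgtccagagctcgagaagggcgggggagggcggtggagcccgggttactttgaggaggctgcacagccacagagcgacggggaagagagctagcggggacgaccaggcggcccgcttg
Cxcl1: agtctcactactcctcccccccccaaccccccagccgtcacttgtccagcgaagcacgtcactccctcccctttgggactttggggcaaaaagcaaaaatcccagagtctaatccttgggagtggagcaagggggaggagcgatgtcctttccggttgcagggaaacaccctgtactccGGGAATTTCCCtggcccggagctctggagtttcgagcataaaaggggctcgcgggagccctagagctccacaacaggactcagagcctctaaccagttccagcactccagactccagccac
Cxcl2: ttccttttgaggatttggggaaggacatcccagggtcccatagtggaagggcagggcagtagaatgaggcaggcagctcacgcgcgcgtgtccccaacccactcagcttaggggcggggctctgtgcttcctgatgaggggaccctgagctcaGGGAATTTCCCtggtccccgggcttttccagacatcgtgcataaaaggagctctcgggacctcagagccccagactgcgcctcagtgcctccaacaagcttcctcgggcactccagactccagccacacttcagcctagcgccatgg
Searched on both strands were the kappaB motif, the CArG box, the AP-1 site (TGANTCA) and the TATA box (TATAAA). The promoters of Cxcl1 and Cxcl2 hold the same 11 letters, GGGAATTTCCC, which match the kappaB motif on either strand in overlapping positions, starting 71 bases before the start of Cxcl1 and 97 bases before that of Cxcl2. Csf1 has 1 match, 154 bases before its start, and Ccl20 has 1, 80 bases before its start, while 8.46% of 32851 promoters of this length hold one. Cx3cl1 has a match to the letters TATAAA, 6 bases before its start (13.6% of promoters hold one). No match to these 4 motifs was found in the windows of Cxcl14 and Cxcl12. A CArG box occurs in 1.63% and an AP-1 site in 7.81% of the promoters, and in none of the 7 windows. These matches describe letters only.

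Each array held 55681 different probes, 52.8% to 59.5% of them well above background, and no spot was saturated. Values are Agilent's processed signals (background-subtracted brightness, in arbitrary units), and for comparison each was divided by its array's 75th percentile (114.2 to 132.9) and put on the log2 scale, here called the scaled log2 signal. Arrays of a group correlated at 0.941 to 0.953 in basal shROR2, 0.976 to 0.982 in basal shLUC, 0.983 in luminal shROR2 and 0.981 to 0.983 in luminal shLUC, and the median SD of a feature was 0.35, 0.19, 0.14 and 0.17 in the same order. The targeted gene could not be checked, because the Ror2 probe was well above background on 1 of the 11 arrays, a basal shROR2 one. Of the marker genes that define the sorted layers, 9 of 10 myoepithelial ones were higher and 13 (shROR2) and 12 (shLUC) of 13 luminal ones lower in basal than in luminal cells. Fibroblast markers were also higher in basal cells, 9 of 11 in shROR2 and 11 of 11 in shLUC outgrowths, and their summed level, in multiples of the 75th percentile, was 72.3 to 87.1 in basal shROR2, 75.7 to 79.8 in basal shLUC, 12.4 to 12.7 in luminal shROR2 and 7.66 to 7.93 in luminal shLUC. Endothelial markers went the same way in 8 and 7 of 10 genes (5 in shROR2 outgrowths without either luminal shROR2 array).

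**Figure D1:**
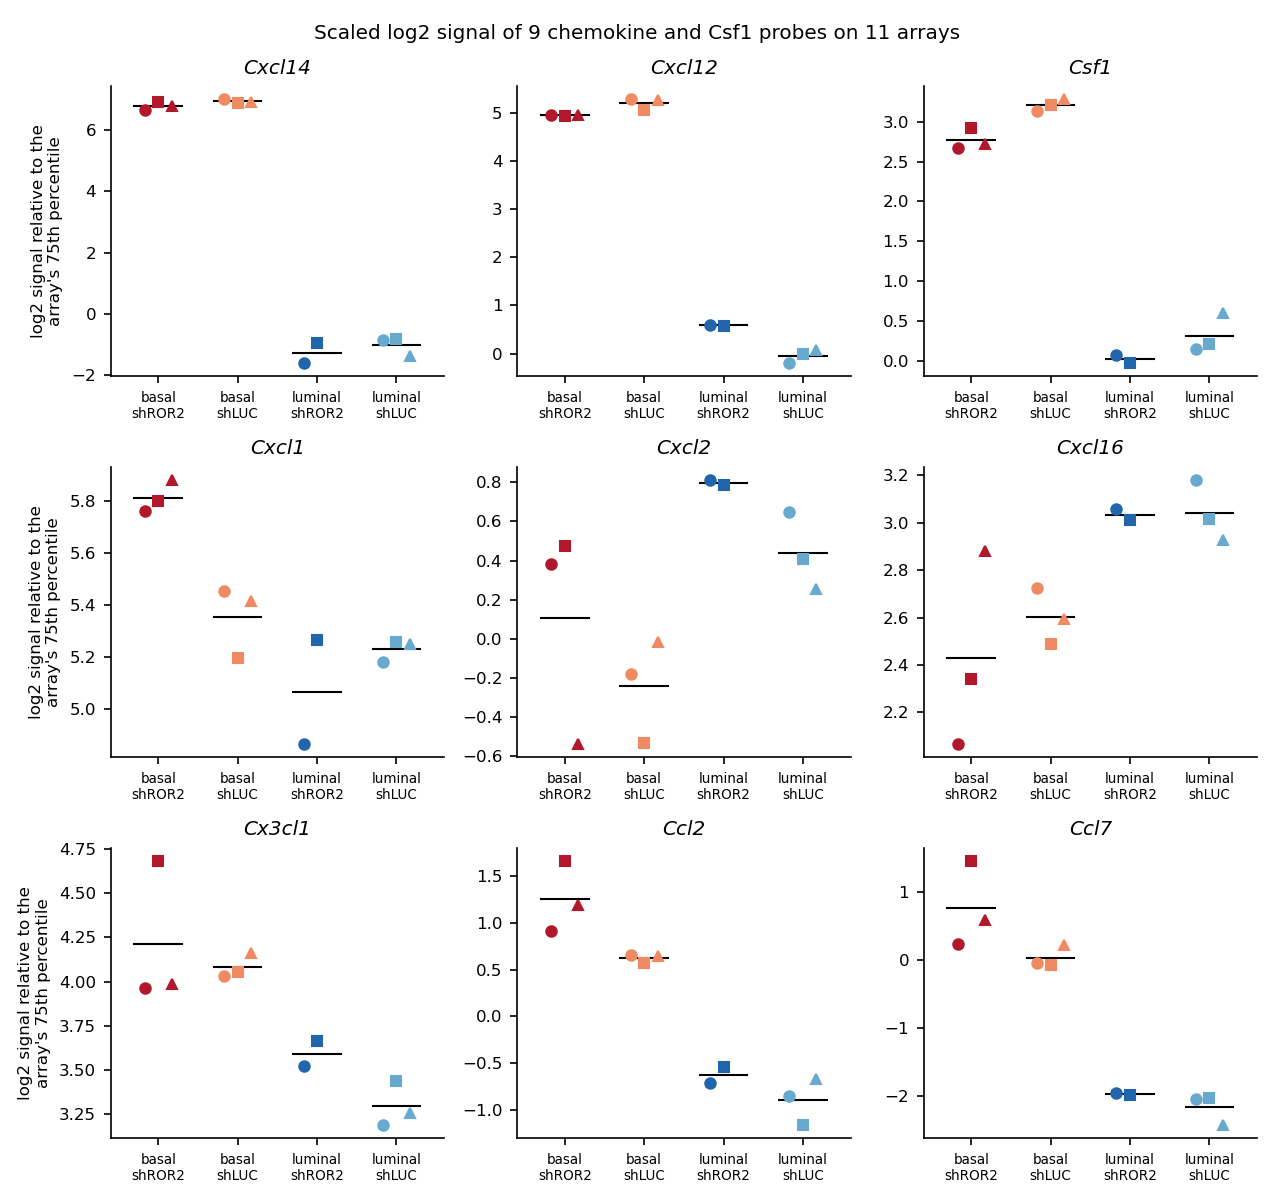
Scaled log2 signal (vertical axis, log2 of the processed signal over the array's 75th percentile) of the 9 genes that passed the filter, by group. Each point is 1 array, its shape gives the replicate number, the line is the group mean, and the axes differ between genes: Cxcl14, Cxcl12, Csf1, Ccl2 and Ccl7 sit higher in the basal groups on the left than in the luminal groups on the right, while Cxcl2 and Cxcl16 have their highest means in luminal cells.

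Basal cells carried more of 5 of these transcripts than luminal cells in both kinds of outgrowth: Cxcl14, Cxcl12, Csf1, Ccl2 and Ccl7. The differences ran from 2.88-fold for Ccl2 to 272-fold for Cxcl14. Fibroblast and endothelial markers, given above, ran the same way. Their list medians on the log2 scale were 3.50 and 2.20 in shROR2 and 3.80 and 2.20 in shLUC outgrowths. The part of such cells in the differences of these 5 genes was not tested. Cxcl1 passed the test in shROR2 outgrowths only and Cx3cl1 in shLUC outgrowths only, and neither difference between the outgrowths passed a test of its own. In all, 6 of 9 genes were called in each kind of outgrowth, all 6 higher in basal cells, where 22.8% of 29429 features were called in shROR2 (10.6% higher) and 26.9% in shLUC outgrowths (13.7% higher). The arrays of the layers did not overlap for 9 of 9 genes in shROR2 and 8 of 9 in shLUC outgrowths, beside 45.7% and 52.3% of all features. The median difference of the 9 genes was 1.88 in shROR2 and 1.52 in shLUC on the log2 scale, beside -0.08 and -0.06 over all features. With the authors' value table in place of the processed signals these 5 genes were called with smaller log2 differences: 6.54 and 6.62 for Cxcl14, 3.80 and 4.42 for Cxcl12, 2.15 and 2.31 for Csf1, 1.23 and 0.90 for Ccl2, and 1.36 and 0.98 for Ccl7, in shROR2 and in shLUC outgrowths. Tests were made with limma on all 11 arrays, with Benjamini-Hochberg adjustment over all features and a call at an adjusted p under 0.05. In bulk RNA of sorted cells, fewer cells of a type and less RNA per cell cannot be told apart, and this holds for each difference below.

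Cxcl14, a chemokine of skin and other epithelia that is made without inflammation, had signals of 11742, 14149 and 12629 in basal shROR2, 15305, 15847 and 14156 in basal shLUC, 40.0 and 59.5 in luminal shROR2, and 62.4, 66.1 and 44.8 in luminal shLUC cells. All 6 basal arrays lay far above all 5 luminal ones. The basal level was 272-fold that of luminal cells in shROR2 outgrowths (log2 difference 8.09 ± 0.23 SE, adjusted p = 9.47e-08, limma) and 253-fold in shLUC outgrowths (7.98 ± 0.20, adjusted p = 3.21e-08). Within each of the 2 slides the differences were 8.35 and 7.90 in shROR2 and 7.84 and 8.01 in shLUC. The order of its means was basal shLUC, basal shROR2, luminal shLUC and luminal shROR2, and within each layer the neighbours overlapped.

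Cxcl12, the ligand of Cxcr4 that holds and guides stem cells and leukocytes, had signals of 3576, 3543 and 3532 in basal shROR2 and 4571, 4386 and 4451 in basal shLUC cells. Luminal cells gave 185 and 175 in shROR2 and 99.8, 117 and 126 in shLUC outgrowths. The layers differed 20.5-fold in shROR2 (log2 difference 4.35 ± 0.13 SE, adjusted p = 1.07e-07, limma) and 37.5-fold in shLUC outgrowths (5.23 ± 0.11, adjusted p = 1.01e-08). No group overlapped another, in the order basal shLUC, basal shROR2, luminal shROR2, luminal shLUC. Its second probe, A_55_P1966204, annotated to another RefSeq transcript, was far dimmer: 53.1, 108 and 57.3 in basal shROR2, 101, 90.3 and 95.5 in basal shLUC, 2.89 and 3.03 in luminal shROR2, and 45.8, 3.80 and 3.00 in luminal shLUC cells. On that probe no luminal shROR2 array and 1 of 3 luminal shLUC arrays were well above background, and basal cells were at least 5.20-fold higher in shROR2 outgrowths, taking the dim side at the lowest signal well above background. Fibroblast markers, given above, ran with Cxcl12 between the layers, and their part in the result was not tested.

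Csf1, which macrophages need to survive and divide, had signals of 739, 884 and 756 in basal shROR2, 1036, 1227 and 1136 in basal shLUC, 130 and 115 in luminal shROR2, and 126, 136 and 180 in luminal shLUC cells on its brightest probe, A_51_P195506. Every basal array was brighter than every luminal one. The difference was 6.71-fold in shROR2 (log2 2.75 ± 0.16 SE, adjusted p = 4.95e-06, limma) and 7.41-fold in shLUC outgrowths (2.89 ± 0.14, adjusted p = 1.16e-06). Both other probes, annotated to another transcript, also stood higher in basal cells. With every probe tested on its own, A_55_P2169669 differed by 1.66 ± 0.31 (adjusted p = 0.00498) in shROR2 and 0.61 ± 0.28 (adjusted p = 0.142) in shLUC outgrowths, and A_55_P2017914 by 2.03 ± 0.32 (adjusted p = 0.00176) and 0.98 ± 0.28 (adjusted p = 0.0313). With the mean of the 3 probes Csf1 differed by 2.14 in shROR2 and 1.49 in shLUC outgrowths, both called.

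Ccl2 and Ccl7, monocyte chemokines that are neighbours on chromosome 11, had like profiles. Ccl2 had signals of 218, 369 and 262 in basal shROR2, 186, 198 and 183 in basal shLUC, 75.2 and 80.4 in luminal shROR2, and 63.3, 52.2 and 74.2 in luminal shLUC cells. Ccl7 had 136, 319 and 172 in basal shROR2, 114, 127 and 137 in basal shLUC, 31.8 and 29.7 in luminal shROR2, and 27.9, 28.9 and 22.1 in luminal shLUC cells. For both genes the layers did not overlap, and replicate 2 of basal shROR2 was the highest of all arrays. Ccl2 was 3.68-fold higher in basal cells in shROR2 (log2 1.88 ± 0.22 SE, adjusted p = 3.78e-04, limma) and 2.88-fold in shLUC outgrowths (1.52 ± 0.20, adjusted p = 5.30e-04). Ccl7 was 6.59-fold higher in shROR2 (2.72 ± 0.31, adjusted p = 3.20e-04) and 4.57-fold in shLUC outgrowths (2.19 ± 0.28, adjusted p = 4.63e-04). The gene next to Ccl7, Ccl11, a chemokine of eosinophils, was 3.73 higher in shROR2 (log2, adjusted p = 1.66e-04, limma) and at least 14.1-fold higher in shLUC outgrowths, where no luminal array was well above background.

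Cxcl1, a neutrophil chemokine, was bright in every group: 6262, 6490 and 6740 in basal shROR2, 5170, 4875 and 4979 in basal shLUC, 3585 and 4496 in luminal shROR2, and 4140, 4480 and 4517 in luminal shLUC cells. Basal shROR2 stood above the other 3 groups on the scaled scale without overlap, and the other 3 overlapped in part. Basal exceeded luminal cells by 1.68-fold in shROR2 outgrowths (log2 0.75 ± 0.15 SE, adjusted p = 0.00612, limma). In shLUC outgrowths the difference was 0.13 ± 0.13 (adjusted p = 0.528). The call in shROR2 was lost when only the groups compared were fitted (adjusted p = 0.0955) and without replicate 1 of luminal shROR2 (log2 0.55, adjusted p = 0.065).

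Cxcl2, a neutrophil chemokine next to Cxcl1, had signals of 151, 162 and 78.9 in basal shROR2, 104, 91.9 and 116 in basal shLUC, 216 and 201 in luminal shROR2, and 179, 155 and 141 in luminal shLUC cells. Its means were higher in luminal cells, with no overlap between the layers of either outgrowth, but the differences missed the threshold. They were -0.69 ± 0.30 (adjusted p = 0.135) in shROR2 and -0.68 ± 0.27 (adjusted p = 0.0942) in shLUC outgrowths on the log2 scale, basal minus luminal, with 95% intervals of -1.37 to -0.02 and -1.28 to -0.07. In shLUC outgrowths Cxcl2 was called lower in basal cells in 4 of 13 alternative settings. On the other side of Cxcl1 lies Cxcl15, a chemokine of lung epithelium in the mouse, which was lower in basal cells by a log2 difference of -4.34 in shROR2 (adjusted p = 0.00128), with 1 of 3 basal arrays well above background, and at least 17.7-fold lower in shLUC outgrowths (adjusted p = 1.49e-04). Of 3 neighbours, then, Cxcl15 was called lower in basal cells in both outgrowths, Cxcl1 higher in 1, and Cxcl2 in neither.

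Of the membrane chemokines, Cxcl16 was called in neither outgrowth and Cx3cl1 in 1. Cxcl16, which also binds oxidised lipoprotein, had signals of 484, 590 and 842 in basal shROR2, 778, 746 and 705 in basal shLUC, 1024 and 942 in luminal shROR2, and 1034, 946 and 902 in luminal shLUC cells. Its log2 differences were -0.61 ± 0.22 (adjusted p = 0.0788) in shROR2 and -0.44 ± 0.19 (adjusted p = 0.133) in shLUC outgrowths, with 95% intervals of -1.10 to -0.11 and -0.88 to 0.0026. It was called lower in basal cells in 3 of 13 alternative settings in each outgrowth. Cx3cl1, or fractalkine, had 1806, 2990 and 1816 in basal shROR2, 1924, 2203 and 2094 in basal shLUC, 1413 and 1480 in luminal shROR2, and 1041, 1271 and 1134 in luminal shLUC cells. It was 1.72-fold higher in basal than in luminal cells of shLUC outgrowths (log2 0.79 ± 0.19 SE, adjusted p = 0.0147, limma), and 0.62 ± 0.21 higher in shROR2 outgrowths without passing the test (adjusted p = 0.0684), which it passed in 4 of 13 alternative settings. The shLUC call was lost without replicate 1 of luminal shLUC (adjusted p = 0.0554) or replicate 3 of basal shLUC (adjusted p = 0.0523). Replicate 2 of basal shROR2 stood apart upward for Cx3cl1, as it did for Ccl2 and Ccl7.

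Ccl20, the ligand of Ccr6, was not well above background on any of the 11 arrays, with signals of 2.16 to 3.12. Its scaled log2 means, -5.44, -5.73, -5.44 and -5.46 in basal shROR2, basal shLUC, luminal shROR2 and luminal shLUC cells, are those of a probe at background, and no fold is given. In an exact two-sided permutation test over arrays, basal and luminal shLUC cells gave p = 0.1, the smallest p that 3 against 3 arrays allow, and the other 3 comparisons gave 0.3 to 1.

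**Figure D2:**
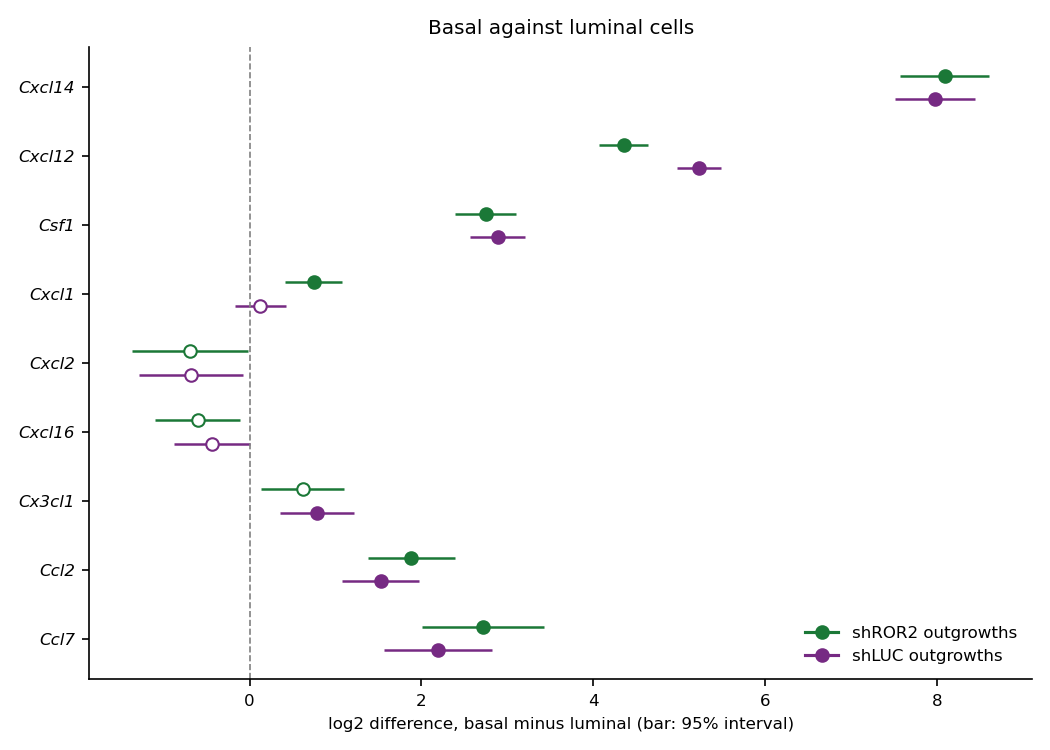
Log2 difference between basal and luminal cells (horizontal axis, basal minus luminal) for 9 genes in shROR2 and shLUC outgrowths. Points are estimates with 95% intervals, and filled points passed an adjusted p of 0.05. Cxcl14 lies near 8 and Cxcl12 between 4.35 and 5.23, while Cxcl2 and Cxcl16 lie below 0 with open points.

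Of 8 receptors, the 7 of these chemokines and Csf1r, 5 had a probe that passed the filter, and Cxcr2, Ccr2 and Ccr6 did not. Ackr3, the scavenging receptor of Cxcl12, had signals of 89.5, 88.6 and 71.1 in basal shROR2 and 63.4, 64.7 and 68.0 in basal shLUC cells, and was not well above background on any luminal array. It was at least 6.24-fold higher in basal cells in shROR2 (adjusted p = 1.07e-04, limma) and at least 4.70-fold in shLUC outgrowths (adjusted p = 2.23e-05). Cxcr4, the signalling receptor of Cxcl12, ran the other way: 1246, 915 and 1268 in basal shROR2, 861, 898 and 698 in basal shLUC, 1967 and 1792 in luminal shROR2, and 1289, 1199 and 1424 in luminal shLUC cells. Its basal minus luminal differences were -0.68 ± 0.17 (adjusted p = 0.0219) and -0.74 ± 0.16 (adjusted p = 0.00726). Ackr1, a chemokine-binding receptor of venules and red cells, was 2.80 higher in basal cells in shROR2 (log2, adjusted p = 5.09e-04) and 2.57 in shLUC outgrowths (adjusted p = 3.43e-04). Cx3cr1 differed by -0.05 and -1.17 and Cxcr6 by -0.37 and -0.29, none of them called. The Cxcr6 probe was well above background on 6 of 11 arrays. In shROR2 outgrowths these were 1 basal and no luminal array, so its -0.37 lies at the floor and gives no fold. Over all features, 10.6% were called higher and 12.3% lower in basal cells in shROR2, and 13.7% and 13.3% in shLUC outgrowths. Of 11 measured receptors, 3 were higher and 1 lower in basal cells in shROR2, and 3 higher and 3 lower in shLUC outgrowths. In other settings the shROR2 counts were 2 to 3 higher and 0 to 2 lower. They were 2 and 0 when only the groups compared were fitted.

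Csf1r had 3 probes that disagreed. The brightest, A_55_P2025073, gave 3700 to 4392 in basal shROR2, 3980 to 4661 in basal shLUC, 3934 to 3985 in luminal shROR2 and 3975 to 4172 in luminal shLUC cells, and no difference on it was called. A_55_P2025078 gave 344, 287 and 303 in basal shROR2, 134, 159 and 117 in basal shLUC, 442 and 518 in luminal shROR2, and 273, 296 and 290 in luminal shLUC cells. With every probe tested on its own, it was lower in basal than in luminal cells, by -0.57 ± 0.14 (adjusted p = 0.0204) in shROR2 and -1.15 ± 0.13 (adjusted p = 2.12e-04) in shLUC outgrowths. The third probe gave 2.87 to 49.2 and was well above background on 7 of 11 arrays. Csf1 and this Csf1r probe thus had opposite layers, and the brightest Csf1r probe did not separate them.

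Among 17 other chemokines measured, 3 were higher and 4 lower in basal cells in shROR2, and 1 higher and 5 lower in shLUC outgrowths, with list medians of -0.61 and -0.64. For this and each count below, the shares over all features were 10.6% higher and 12.3% lower in shROR2 outgrowths. In shLUC outgrowths they were 13.7% and 13.3%. Beside Ccl11 and Cxcl15, Cxcl17, a mucosal chemokine, was at least 2.63-fold lower in basal cells in shLUC outgrowths (adjusted p = 5.72e-04), Ccl6 was lower by -0.98 (adjusted p = 0.00424) and -0.87 (adjusted p = 0.00371), and Cxcl10, an interferon-induced chemokine, was 2.10 higher in shROR2 outgrowths (adjusted p = 0.00167). Of 6 other growth factors of myeloid cells, 3 were higher in basal cells in both outgrowths: Il6 by 2.39 and 2.78, Kitl, the ligand of Kit, by 1.31 and 1.18, and Il34, the other ligand of Csf1r, by 2.35 and 1.67 (adjusted p = 0.00226 at most, limma). Going the other way, 1 of the 6 was called lower in basal cells of shROR2 outgrowths. That call was lost with no filter, with the slide as a block, with array weights and when only the groups compared were fitted. It was also lost in most fits without 1 array, among them those without replicate 1, 2 or 3 of basal shLUC. Without replicate 1 of basal shROR2, 4 of the 6 were called higher and 2 lower. Among 10 genes that shed, cleave or bind chemokines, 4 in shROR2 and 3 in shLUC outgrowths were higher (5 in shLUC without replicate 1 of basal shROR2) and 1 was lower in basal cells. Mmp2, a metalloproteinase that cleaves Cxcl12, was 6.21 higher on the log2 scale in shROR2 and at least 89.5-fold in shLUC outgrowths, Ext1 and Sdc1, of the heparan sulfate chains that hold chemokines, were higher by 1.72 and 1.35 in shROR2 and by 2.09 and 1.81 in shLUC outgrowths, and Adam10, which sheds Cxcl16 and Cx3cl1, was lower by -1.40 and -1.20 (adjusted p = 2.53e-04 at most). Of 17 NF-kappaB subunits and feedback genes, 3 in shROR2 and 8 in shLUC outgrowths were lower in basal cells and none higher, among them Tnf by -1.61 and -3.32 and Nfkbiz by -1.09 and -1.32. Tnf was near background in basal shLUC cells, with signals given below, so the size of its -3.32 is uncertain. The NF-kappaB count in shROR2 outgrowths was 0 to 5 in other settings, 1 without replicate 1 of luminal shROR2 and 5 without replicate 2 of basal shROR2, and 1 gene was called higher without replicate 1 of basal shROR2. In shLUC outgrowths it was 5 without replicate 2 of luminal shLUC. Macrophage and leukocyte markers were lower in basal cells for 5 of 17 genes in shROR2 and 13 of 17 in shLUC outgrowths. The shROR2 count was 2 to 8 in other settings, 3 without replicate 1 and 2 without replicate 2 of luminal shROR2. Without either of these arrays, 2 of the 17 other chemokines were higher and 2 lower in basal cells of shROR2 outgrowths. Whether these counts differ between the outgrowths was not tested.

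The hairpin against Ror2 moved none of the 9 genes past the test in basal cells (0 of 9 called, limma), where 0.968% of 29429 features were called. An unadjusted p under 0.05 was reached by 4 of the 9 genes, beside 4644 of the 29429 features. The 4 were Cxcl1, Ccl2 and Ccl7, which stood higher in shROR2, and Csf1, which stood lower on its brightest probe. On 5 of 9 genes the groups did not overlap, beside 18.5% of all features. The median difference was 0.13, beside -0.05 over all features, and 5 genes had a positive and 4 a negative difference.

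Ccl7 differed by 0.72 ± 0.28 SE between basal shROR2 and basal shLUC cells (log2, 95% interval 0.09 to 1.36, adjusted p = 0.259) and Ccl2 by 0.63 ± 0.20 (0.18 to 1.08, adjusted p = 0.177). The arrays did not overlap, but replicate 2 of shROR2 carried much of the size: on slide 2, which held it and 1 shLUC array, the differences were 1.52 and 1.09, against 0.32 and 0.40 on slide 1. Without that array they were 0.38 and 0.43. The SEs and intervals pooled the spread of all groups. Array SDs of Ccl7 were 0.63 in basal shROR2, 0.16 in basal shLUC, 0.018 in luminal shROR2 and 0.23 in luminal shLUC (log2). Ccl2 had 0.38, 0.045, 0.12 and 0.25 in the same order. For both genes basal shROR2 varied most, so their intervals and unadjusted p-values in this comparison may overstate the precision. Cxcl1 differed by 0.46 ± 0.13 (0.16 to 0.75, adjusted p = 0.147), with 0.39 and 0.60 on the 2 slides, and was called in 1 of 13 alternative settings, with an intensity trend and robust moderation together (adjusted p = 0.0399). Csf1 differed by -0.43 ± 0.14 (-0.76 to -0.11, adjusted p = 0.19), with -0.51 and -0.28 on the slides. Cxcl12 stood lower in each shROR2 array, with a difference of -0.25 ± 0.11 (-0.51 to 0.01, adjusted p = 0.33) and -0.32 and -0.12 on the slides.

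Both other Csf1 probes went against the brightest one. A_55_P2169669 had 88.8, 139 and 154 in basal shROR2, against 76.6, 105 and 79.1 in basal shLUC cells. A_55_P2017914 had 56.9, 73.2 and 83.7 in basal shROR2, against 46.9, 52.6 and 53.3 in basal shLUC cells. Their differences were 0.61 ± 0.28 (adjusted p = 0.334) and 0.55 ± 0.28 (adjusted p = 0.387), so the direction of Csf1 in basal cells depended on the probe.

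**Figure D3:**
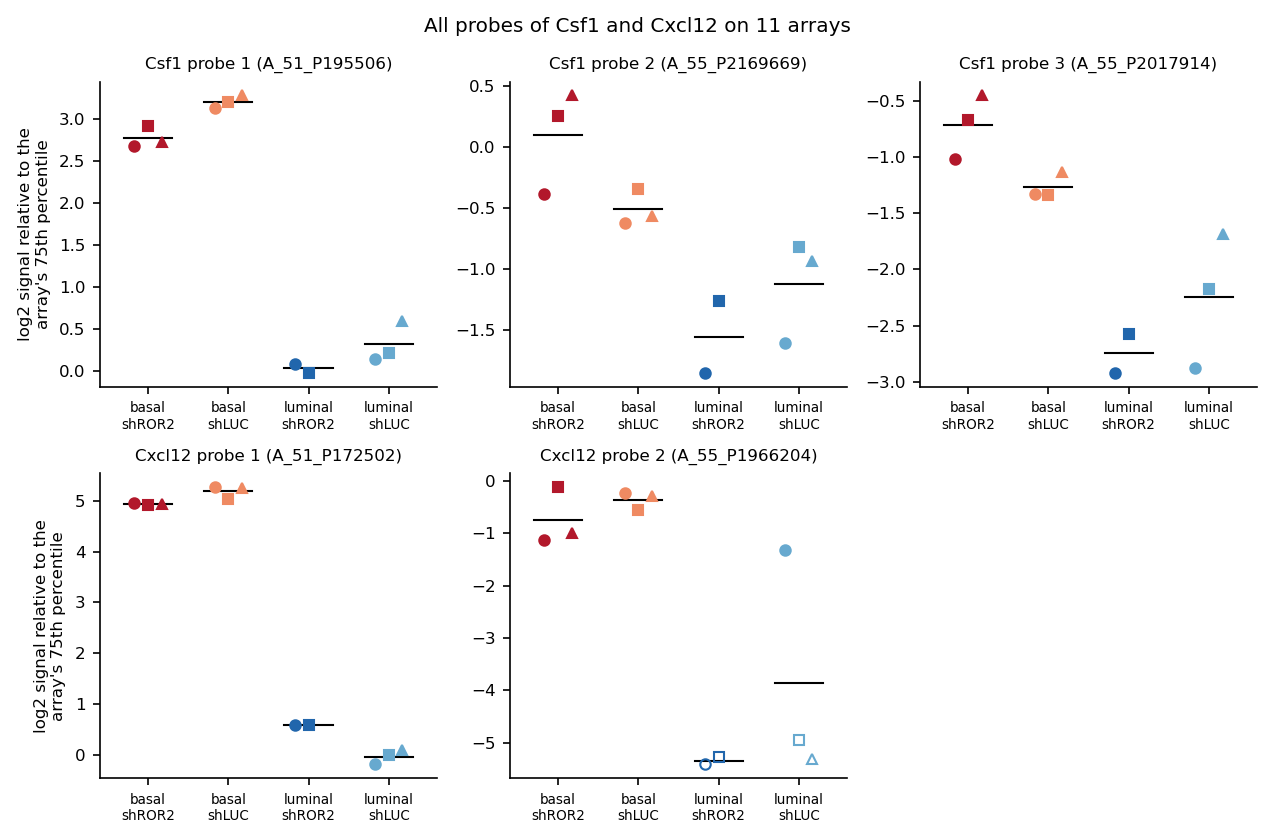
Scaled log2 signal (vertical axis) of the 3 Csf1 probes and the 2 Cxcl12 probes by group, 1 point per array, with group means as lines. Filled points were well above background and open points were not. Csf1 probe 1 is lower in basal shROR2 than in basal shLUC, where probes 2 and 3 are higher, and Cxcl12 probe 2 is near background on 4 of 5 luminal arrays.

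Cxcl14 (-0.15 ± 0.20), Cxcl2 (0.35 ± 0.27), Cxcl16 (-0.17 ± 0.19) and Cx3cl1 (0.13 ± 0.19) had arrays that overlapped between basal shROR2 and basal shLUC cells. Their 95% intervals were -0.62 to 0.31, -0.26 to 0.95, -0.61 to 0.27 and -0.30 to 0.56 on the log2 scale. For Cxcl2, replicate 3 of shROR2 lay below every shLUC array while replicates 1 and 2 lay above, and the difference was 0.02 on slide 1 and 1.01 on slide 2.

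In luminal cells 0 of 9 genes were called (limma), where 0.0034% of all features were called. An unadjusted p under 0.05 was reached by 1 of the 9 genes, beside 1634 of 29429 features. On 5 of 9 genes the groups did not overlap, beside 29% of all features, and 2 arrays against 3 limit what can be seen. Cxcl12 was the gene with the small p: 185 and 175 in luminal shROR2, against 99.8, 117 and 126 in luminal shLUC cells. It stood 1.54-fold higher with shROR2 (log2 0.63 ± 0.13 SE, 95% interval 0.34 to 0.91, unadjusted p = 8.43e-04, adjusted p = 0.32), with 0.78 and 0.55 on the 2 slides. Its second probe was at background there on 4 of 5 arrays. The summed level of fibroblast markers was also higher there, 12.4 to 12.7 in luminal shROR2 and 7.66 to 7.93 in luminal shLUC cells. Of the 11 fibroblast markers 0 were called, 8 had a positive and 3 a negative difference, and the median was 0.34. Other lists also leaned upward there with 0 called. Positive were 8 of 10 endothelial (median 0.85), 14 of 17 macrophage and leukocyte (0.58) and 7 of 10 myoepithelial markers (0.10). What part such cells had in the result was not tested. The other 8 genes differed by -0.29 (Csf1) to 0.36 (Cxcl2).

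Whether the hairpin acted differently in the layers was tested as the difference of the effects, basal minus luminal. It was called for 0 of 9 genes and for 0% of all features (2440 features had an unadjusted p under 0.05, limma). Cxcl12, lower with the hairpin in basal and higher in luminal cells, gave -0.88 ± 0.17 SE (95% interval -1.26 to -0.49, unadjusted p = 6.33e-04, adjusted p = 0.248), with -1.10 and -0.67 on the slides. Cxcl1 gave 0.62 ± 0.20 (0.18 to 1.07, unadjusted p = 0.0116, adjusted p = 0.471). This is also the test of whether the basal excess of each gene differed between the outgrowths, so the layers' difference in Cxcl1 (0.75 in shROR2 and 0.13 in shLUC) and in Cx3cl1 (0.62 and 0.79, difference -0.17 ± 0.29, adjusted p = 0.916) was not shown to depend on the hairpin.

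**Figure D4:**
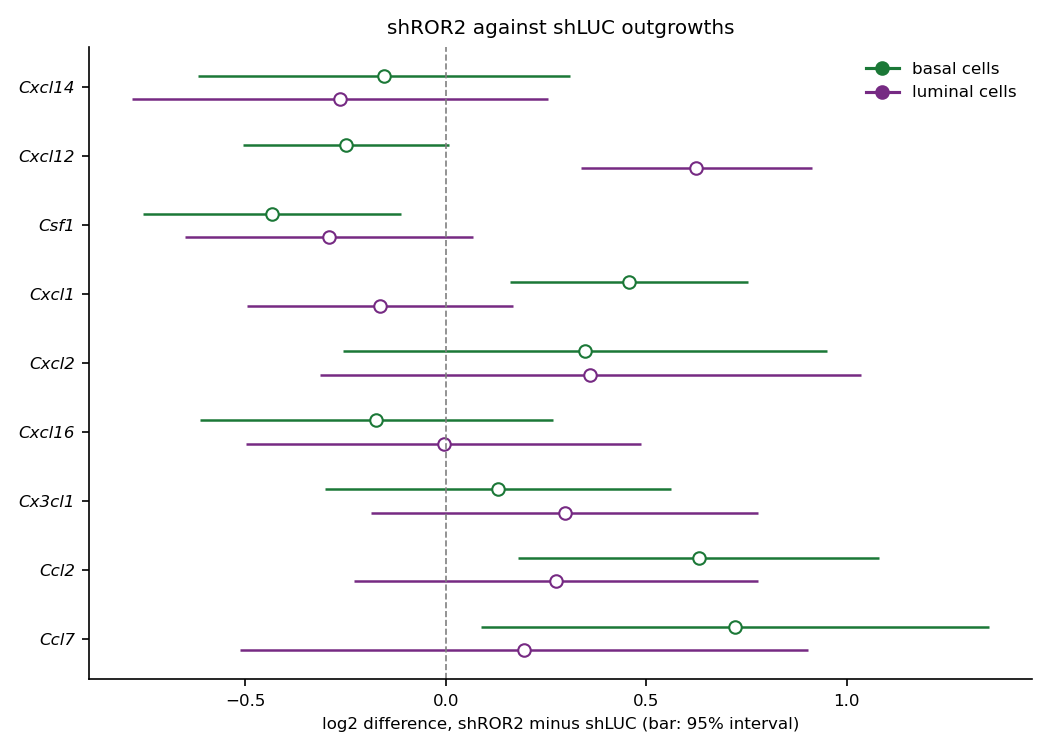
Log2 difference between shROR2 and shLUC outgrowths (horizontal axis, shROR2 minus shLUC) for 9 genes in basal and luminal cells, with 95% intervals. All points are open, since none passed an adjusted p of 0.05. Ccl7 and Ccl2 lie furthest to the right in basal cells and Cxcl12 in luminal cells, and only for Cxcl12 do the intervals of the layers not overlap.

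Some genes of other lists passed the test in basal cells. Of 17 macrophage and leukocyte markers, 9 were called higher in basal shROR2 than in basal shLUC cells, with a list median of 1.12, among them C1qc of the complement system (1.71 ± 0.18 SE, adjusted p = 0.0101, limma) and Cd74 of the antigen-presentation pathway (1.27 ± 0.13, adjusted p = 0.00943). Their summed level without Itgam, whose brightest probe outshone the rest of the list in every group, was 110.6 to 122.1 in basal shROR2 and 69.2 to 73.6 in basal shLUC cells, and 15 to 17 and 15 to 16 of the 17 were above background. The count was 0 without replicate 1 and 2 without replicate 2 of basal shLUC, 6 without its replicate 3 and with no filter, 5 or 6 without any 1 of the luminal arrays, 5 with the replicate block or array weights, and 0 when only the groups compared were fitted. Endothelial markers had 2 of 10 called higher, Plvap (log2 1.35, adjusted p = 0.0422) and Emcn (adjusted p = 0.048), a count of 0 to 4 in other settings, and summed levels of 46.6 to 53.0 in basal shROR2 and 24.2 to 29.7 in basal shLUC cells. Of 24 immediate early and heat shock genes, 6 were called higher (2 without replicate 1 or replicate 2 of basal shLUC, and 0 to 10 in other settings), with Hspa1a, an inducible chaperone, at 1.61 ± 0.14 (adjusted p = 0.00493), Atf3 at 1.03 ± 0.10, Fosb at 0.86 ± 0.09 and Btg2 at 1.08 ± 0.12. What part these transcripts had in the differences of Ccl2, Ccl7 and Cxcl1 was not tested.

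Among other chemokines 1 of 17 was called higher in basal shROR2 cells, Ccl6, a chemokine of mouse myeloid cells (0.90 ± 0.16 SE, adjusted p = 0.0455, limma), a count of 0 to 1 in other settings and 0 to 2 without 1 array. The list's median was 0.74, and 16 of its 17 genes had a positive difference. Of the receptors 0 of 11 were called, with a median of 0.56: Cxcr4 differed by 0.56 ± 0.16 (adjusted p = 0.141), Cx3cr1 by 1.49 ± 0.50 (adjusted p = 0.204), Ackr3 by 0.42 ± 0.31 (adjusted p = 0.552), Cxcr6 by -1.20 ± 0.72 (adjusted p = 0.458) and the brightest Csf1r probe by -0.01 ± 0.10 (adjusted p = 0.974). The Cxcr6 probe was near background there, with signals of 3.10 to 18.6 in basal shROR2 and 10.8 to 49.2 in basal shLUC cells. With every probe tested on its own, Csf1r's A_55_P2025078 was called higher in basal shROR2 cells, at 1.28 ± 0.13 (adjusted p = 0.0106). Of the NF-kappaB list 1 of 17 was called, Tnf, a cytokine that induces several of these chemokines, at 2.26 ± 0.40 (adjusted p = 0.043), with signals of 26.6 to 55.3 in basal shROR2 and 5.57 to 17.9 in basal shLUC cells, where 1 of 3 arrays was well above background. No gene of the other growth factor (6 measured) or shedding and binding (10 measured) lists was called.

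**Figure D5:**
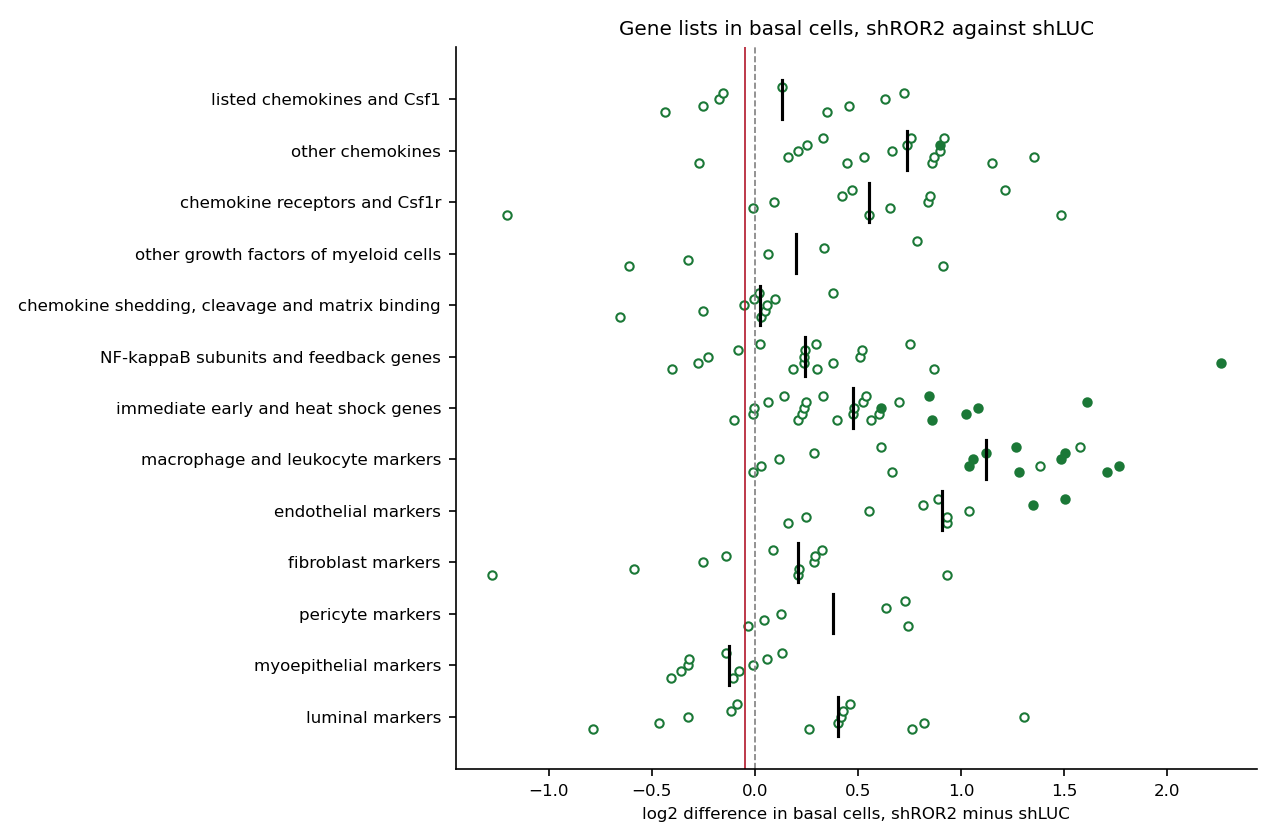
Log2 difference in basal cells (horizontal axis, shROR2 minus shLUC) of each measured gene in 13 lists, 1 point per gene and filled where the adjusted p was under 0.05. Black bars are list medians, the red line is the median of all features (-0.05) and the dashed line is 0. The macrophage and leukocyte list holds 9 filled points around a median of 1.12, and the listed chemokines and Csf1 hold none around 0.13.

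In luminal cells no gene of these lists was called between shROR2 and shLUC. In other settings up to 2 immediate early and heat shock genes were called higher with shROR2 there. The other chemokine, other growth factor, myoepithelial and fibroblast lists had up to 1 each. The list medians there were 0.58 for macrophage and leukocyte markers, 0.85 for endothelial markers, 0.31 for other chemokines and 0.28 for receptors. Cxcr4 differed by 0.49 ± 0.17 (adjusted p = 0.758, limma) and Ackr3, not well above background on any luminal array, has no fold.

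The genes whose profile over the 11 arrays lay nearest to each member were found among 14067 other named genes by the root mean square difference of the scaled log2 signals, each gene centred on its own mean. Nearest to Cxcl14 were Krt5, a basal keratin (0.33), Wif1, a secreted Wnt inhibitor (0.34), and Cnn1, a smooth muscle protein (0.37). Nearest to Cxcl12 were Ckb (0.14), Col7a1 (0.21) and Fbln2 (0.21), the last ones matrix genes, and nearest to Csf1 were Cdh13 (0.18), Plat (0.19) and Frmd4a (0.19). Ccl2 had Marveld1 (0.20), Pxn (0.22) and 1700019D03Rik (0.23), and Ccl7 had Fam180a (0.22), Prkg1 (0.24) and Gbp4 (0.24). Cxcl1 had Nf2 (0.10), Ifi47 (0.12) and Pde2a (0.14), Cxcl2 had Zfp467 (0.17), Apeh (0.18) and Plekhj1 (0.18), Cxcl16 had Anapc16 (0.084), Slc4a2 (0.13) and Zfp46 (0.13), and Cx3cl1 had Csad (0.097), Pfn1 (0.11) and Prrc2a (0.12). Among the listed genes themselves, Cxcl1 and Cx3cl1 (0.32) and Ccl2 and Ccl7 (0.44) were the closest pairs. A gene that varies little lies near many others, so these distances describe the profiles and are not comparable between members.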

How the data were processed

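Gene expression was measured in 11 samples on one-colour (Cy3) Agilent arrays, 1 array each, from amplified RNA of sorted cells, with replicates described as biological in the labels. The deposited intensities are Agilent processed signals, which per the file headers were background-subtracted and spatially detrended by Feature Extraction 11.0.1.1. The authors' value table, intensities of unstated normalization, served as an alternative. Intensities were divided by each array's 75th percentile and put on the log2 scale. Probes well above background on at least 3 of 11 arrays were kept, with the brightest probe for each named gene, leaving 29429 features (14068 named genes, 15361 unnamed probes). Group means were fitted with limma 3.58.1 in R 4.3.3 on all arrays, with Benjamini-Hochberg adjustment and a call at an adjusted p under 0.05, and the procedure was tested on simulated data. A probe not well above background in a whole group gave "at least" folds. The number of arrays limits the precision. Normexp used median spot signals (offset 50). Named were all members, up to 4 called genes with the smallest p per related list and comparison, the members' receptors, and the 3 nearest profiles; examples from the cell type marker lists were chosen after their values were seen. Background, scaling, filter, probe choice, slide, replicate block, samples, weights and moderation were varied. The members and lists were chosen with earlier results of these data known.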

Additional observations from a re-analysis of the deposited data

How the results depend on the processing

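Under 13 alternative settings and 11 fits that each left out 1 array, Cxcl14, Cxcl12, Csf1, Ccl2 and Ccl7 were called higher in basal cells in both outgrowths. The number of the 9 genes called was 5 to 8 in each outgrowth, with up to 1 in shROR2 (Cxcl16) and 2 in shLUC outgrowths (Cxcl2 and Cxcl16) called lower in basal cells, 0 to 1 for shROR2 against shLUC in basal cells, and 0 in luminal cells and for the difference of the effects. With normexp or the authors' value table the basal excess was smaller, for Ccl7 1.48 and 1.36 in shROR2 and 1.03 and 0.98 in shLUC outgrowths, and for Cxcl14 6.74 and 6.54 in shROR2 outgrowths. Normexp adds an offset of 50, and the lowest value of the authors' table was 52.5 to 53.4 by array. The part of these floors in the smaller differences was not tested. Without replicate 3 of basal shROR2, Cxcl16 was called in both outgrowths, at -0.83 and -0.44, Cxcl2 in shLUC at -0.68 and Cx3cl1 in shROR2 outgrowths at 0.73. Without replicate 1 of basal shROR2, Cx3cl1 was called in shROR2 outgrowths at 0.74.

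Of all features, 285 were called between basal shROR2 and basal shLUC, against 706 with normexp, 541 with the authors' value table, 136 with no filter, 133 with the slide as a block, 37 with the replicate block, 0 with only the groups compared, 44 with array weights, 665 with trend and robust moderation, and 21 to 887 without 1 array. In luminal cells 1 was called, against 22 with normexp, 22 with the authors' value table, 5 with quantile normalization, 3 with no filter, 6 with the stricter filter, 62 with array weights, 26 with trend and robust moderation, 0 with median scaling, the mean of probes, either block or only the groups compared, and 0 to 10 without 1 array. For the difference of the effects 0 were called, against 7 with normexp or the authors' value table, 2 with quantile normalization, 1 with median scaling, 3 with the stricter filter, 24 with trend and robust moderation, and 0 to 8 without 1 array. Between basal and luminal cells 6721 were called in shROR2 outgrowths (2827 with only the groups compared, 3774 to 7553 without 1 array) and 7930 in shLUC outgrowths (5834 to 9572 without 1 array).

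Differences that changed sign were uncalled. With the mean of a gene's probes, Csf1 in basal cells became 0.24, Cxcl12 in luminal cells -0.43, and their differences of effects 0.65 and 0.11. The difference of effects became -0.070 for Cxcl14 with normexp and -0.074 with the authors' value table, and for Cxcl2 0.041 with median scaling and 0.087 with the replicate block. Cxcl16 in luminal cells became 0.013 with median scaling and 0.049 with the replicate block. Ccl20, at background, became -0.0033 in basal cells with the authors' value table, -0.14 and -0.12 in luminal cells with normexp and that table, and, between the layers in shROR2 outgrowths, 0.12 with normexp, 0.12 with quantile normalization, 0.051 with median scaling and 0.10 with that table. Without 1 array the effect of the hairpin ranged in basal cells from -0.40 to 0.0076 (Cxcl16) and -0.10 to 0.25 (Cx3cl1), and in luminal cells from -0.063 to 0.064 (Cxcl16), -0.59 to 0.061 (Cxcl14), -0.36 to 0.037 (Cxcl1) and -0.060 to 0.094 (Ccl20). The difference of effects ranged from -0.20 to 0.31 (Cxcl2), -0.22 to 0.43 (Cxcl14) and -0.39 to 0.013 (Cxcl16), and the layers' difference of Ccl20 in shROR2 outgrowths from -0.12 to 0.085.

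Same-numbered arrays deviated from their group means with correlations of -0.037 to 0.040 over 15 pairs, none over 0.1, so the replicate block rests on shared numbers only. Where luminal shROR2 was left with 1 array, that array was assumed to vary like the other groups. Genes near background, such as Ccl20 and the second Cxcl12 probe in luminal cells, are limited by signal over background.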
